A study of Rattus norvegicus with 12 samples.

Results

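The subject is the set of new isoforms of known genes: transcripts that an assembler added to genes already in the Ensembl rat annotation. A transcript was taken as a member when its identifier began with TCONS, as an assembler gives it, and its gene carried an Ensembl identifier, had at least 1 annotated transcript (ENSRNOT) and averaged 5 CPM or more over the 12 libraries. CPM is the gene's summed estimated count scaled to the library's total. The members were thus selected on identifier and on gene level, and the shares used below came from the same FPKM values. The rule kept 12748 of the 78025 transcripts listed, in 3873 genes, which is 38.5% of the 10051 annotated genes at that level. The lowest gene inside was ENSRNOG00000053691 at 5.0008 CPM and the highest outside was ENSRNOG00000012665 at 4.99981 CPM. A further 8416 new isoforms lay in genes under the minimum, and 15783 new transcripts lay in assembled loci without an Ensembl gene. The quantity followed is the share of an isoform: its FPKM (abundance scaled to transcript length and library total) as a percent of the summed FPKM of all transcripts of its gene in the same library.

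All libraries were made from prefrontal cortex, taken on postnatal day 28 from rats of the SD strain, in 3 groups of 4. The normal group held libraries 8, 10, 11 and 13, the HIBD model group (hypoxic-ischemic brain damage) libraries 2, 8, 16 and 18, and the acupuncture group libraries 5, 22, 35 and 55, numbered as in their titles. The labels of the last group name only acupuncture, and the series title places that treatment in rats with hypoxic-ischemic brain damage. The labels give no way of inducing the injury, no acupuncture protocol and no sex, and they do not say that a number stands for 1 animal, so a p-value speaks of the variation among libraries, which may be technical. No source used here pairs the identifiers with symbols. Genes therefore appear under their identifiers, with no role stated, and the tissue label was not checked against marker genes.

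Most mammalian genes give rise to several transcripts, by choosing among promoters, splice sites and polyadenylation sites. Brain is among the tissues where such choices are richest, and the choice can alter the protein or only the untranslated ends of the message. A reference annotation lists the forms seen so far. An assembler adds a form when the aligned reads support a chain of exons that the reference lacks, and an assembled form can be a complete message, a fragment or a form with a retained intron.

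The estimated counts summed to between 714904584 and 1090316733 per library. Each was a product of the FPKM and a factor of the transcript and of the library, so the number of reads is unknown, and for a value of 0 the text says only that it was listed so. Reads that fall in exons shared by several isoforms had to be divided among them by the authors' software, so every value of an isoform whose sequence overlaps that of its neighbours is uncertain. In RNA of whole tissue, fewer cells of a type and less RNA per cell cannot be told apart. Normal library 10 stood apart in its group: its shares lay among those of the other groups in several summaries below, and counts of calls against the normal group are given with and without it.

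New isoforms were spread unevenly over their genes. A median gene held 2 of them: 1615 genes held 1, 1689 genes 2 to 5, 529 genes 6 to 20, and 40 genes more than 20, with 1369 isoforms among those 40. The most, 64, were listed for ENSRNOG00000048230 and for ENSRNOG00000060088, each with 1 annotated transcript. In 2721 genes (70.3%) the annotation offered 1 transcript only, so that for these genes every alternative form in the table was a new one.

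Most new isoforms were minor forms, and a small set carried nearly all of a gene. The mean share over the 12 libraries had a median of 5.81% and quartiles of 2.13% and 14.4%. It was under 1% for 1668 isoforms, 1% to 10% for 6692, 10% to 50% for 3645 and 50% or more for 743. Their median level was 0.357 FPKM, against 2.00 FPKM for the 5798 annotated transcripts of the same genes. New isoforms were above 0 in all 12 libraries in 6575 cases (51.6%) and listed at 0 throughout in 99 (0.777%). Annotated transcripts of the same genes were above 0 in all 12 in 4198 cases (72.4%) and listed at 0 throughout in 378 (6.52%).

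Summed over a gene, the new isoforms fell toward either end of the scale. In 1136 genes they held under 10% of the FPKM and in 913 genes (23.6%) 90% or more, while only 204 genes lay between 75% and 90%. In 1453 genes (37.5%) they held 50% or more, and in 171 genes every annotated transcript was listed at 0 in every library. A new isoform was the most abundant form of 1304 genes (33.7%), and of 1536 genes when the leading form was taken by estimated count, a choice added after seeing the data. The summed share was lower in more abundant genes. In the normal group it averaged 50.8% ± 0.823 (SD, n = 4) in the 990 genes at 5 to 10 CPM, 44.1% ± 0.828 in the 1359 genes at 10 to 30 CPM, 36.6% ± 0.689 in the 967 genes at 30 to 100 CPM and 26.9% ± 0.814 in the 557 genes at 100 CPM or more. It was higher where more isoforms had been assembled, at 22.6% ± 0.508 with 1 new isoform and 74.6% ± 1.01 with 6 or more.

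**Figure D1:**
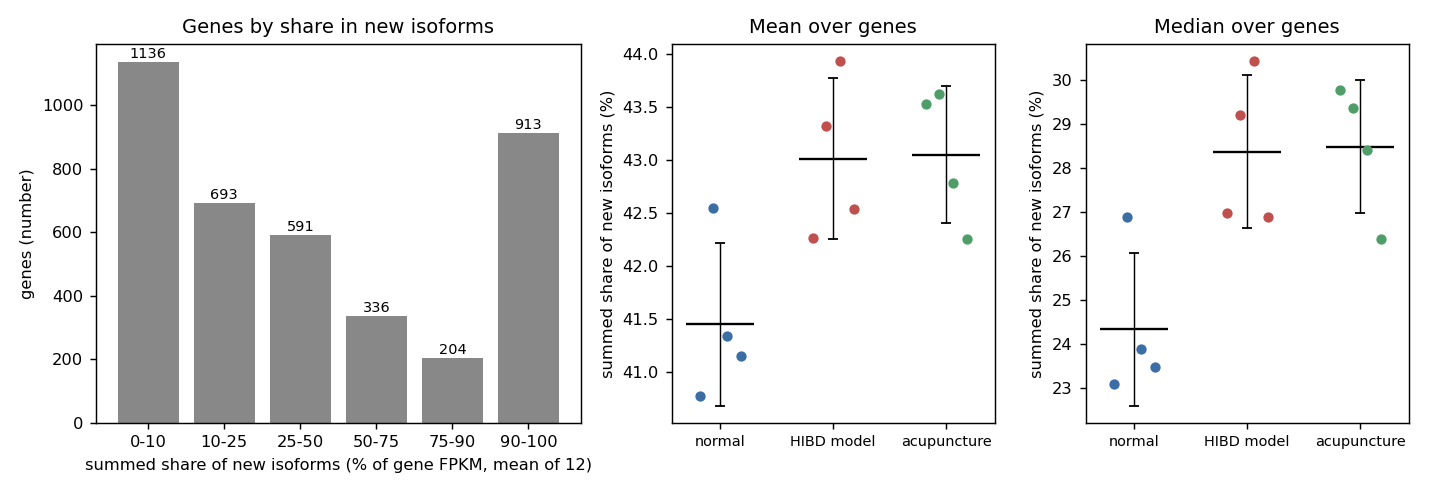
Left, number of genes by the summed share of their new isoforms (percent of gene FPKM, mean of 12 libraries); middle and right, the mean and the median of that share over the 3873 genes, with 1 point per library, the group mean as a bar and the SD as whiskers. Genes pile up at both ends, with 1136 under 10% and 913 at 90% or more, and normal library 10 is the highest of its group in both summaries.

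An approximate relative length of a new isoform could be read from the files for 9261 of the 12748. It is the ratio of the length factor implied by its estimated count and FPKM to the largest such factor among annotated transcripts of the gene. The factor is not a measured length: the ratio was 3445 for TCONS_00258849, 314.3 for TCONS_00126678 and 0.0047 for TCONS_00265299. Such extremes are not read as lengths, and longer and shorter below refer to this factor. The median ratio was 1.04. Of these isoforms, 47.0% were over 10% longer than the longest annotated form, 36.4% over 10% shorter and 16.7% within 10% of it. The 2829 isoforms at a ratio of 2 or more were above 0 in all libraries in 43.6% of cases, against 63.1% of the 2494 isoforms under 0.5. The isoforms of ratio 2 or more held 173 of the forms with a mean share of 50% or more, and those under 0.5 held 31. The 3487 isoforms without a ratio held 399 of them, more than any class with a ratio. A ratio is missing where the new isoform, or every annotated transcript of its gene, had a summed estimated count under 100. Genes with almost no annotated FPKM therefore fall in this class, and the number of 399 follows in part from that definition. Because FPKM divides by length, a very short form takes a larger share of FPKM than of estimated counts. TCONS_00123917 of ENSRNOG00000004752, with a ratio of 0.0290, averaged 44.8% of the gene's FPKM and 2.30% of its estimated counts. TCONS_00137443 of ENSRNOG00000012747, with a ratio of 0.0997, averaged 34.5% and 4.99%. TCONS_00202837 of ENSRNOG00000015226, with a ratio of 0.144, averaged 48.1% and 11.8%.

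The steadiest isoforms of middling share kept within 4 percentage points over all 12 libraries. TCONS_00137443 ran from 33.1% to 36.2% and TCONS_00140739 of ENSRNOG00000013454 from 34.5% to 37.9%. TCONS_00099803 of ENSRNOG00000016427 ran from 42.1% to 45.5% and TCONS_00202837 from 45.9% to 49.4%. TCONS_00123917 ran from 42.6% to 46.3% and TCONS_00264574 of ENSRNOG00000049378 from 28.6% to 32.4%. The groups overlapped in all of these 6 except TCONS_00137443, where the normal libraries (34.6% to 36.2%) lay above the HIBD model (34.0% to 34.4%) and acupuncture libraries (33.1% to 34.4%). Their genes held 2 to 4 transcripts. They were picked as the 6 with the smallest range among isoforms averaging 30% to 70%, so their narrowness is a description.

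At the other end, shares passed from 0 to 100% between libraries of a group. TCONS_00022572 and TCONS_00022573 of ENSRNOG00000059393 exchanged places: the former held all of the gene's FPKM in normal 8, normal 10, HIBD model 8, acupuncture 35 and acupuncture 55, and the latter in HIBD model 16, acupuncture 5 and acupuncture 22. TCONS_00003777 and TCONS_00003828 of ENSRNOG00000055141 did likewise, with TCONS_00003828 at 100% in normal 8, normal 13 and acupuncture 55 and at 13.9% or less in all others. TCONS_00002076 of ENSRNOG00000048976 reached 100% in acupuncture 22 on a level of 0.00595 FPKM, and TCONS_00002052 of the same gene 100% in acupuncture 35 on 0.0234 FPKM. Those last shares rest on a gene that was nearly silent in the library concerned.

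The spread of new and of annotated forms parted at middling and high shares. For isoforms with a mean share of 50% to 75%, the range over the 4 libraries of a group, averaged over the groups, had a median of 30.1 percentage points over 359 new isoforms and 15.9 over 751 annotated transcripts. At 75% to 90% the medians were 22.8 over 136 new isoforms and 8.61 over 667 annotated transcripts. At 1% to 5% they were 4.38 and 3.65, and at 90% or more 3.23 and 3.61. These medians describe the table and were not tested.

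**Figure D2:**
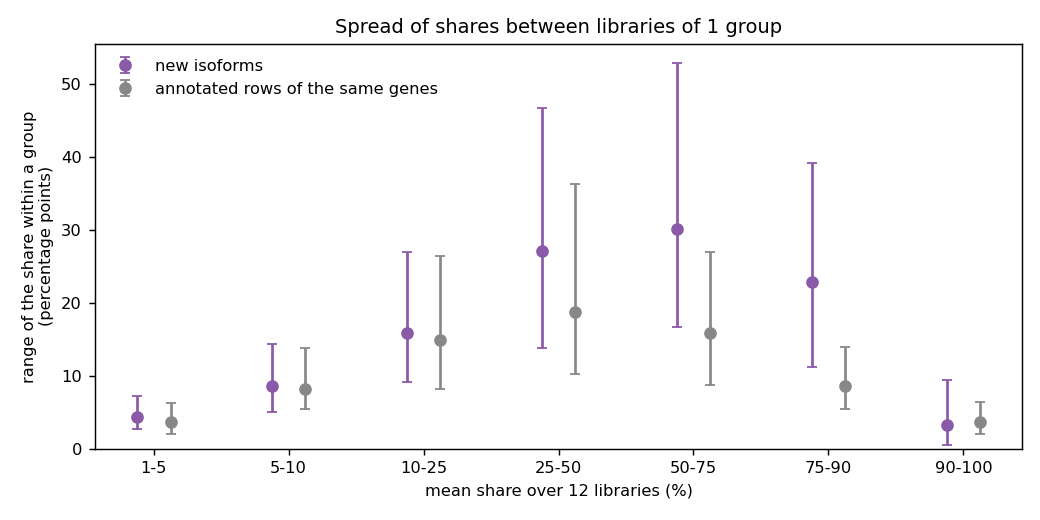
Range of a transcript's share over the 4 libraries of a group, averaged over the 3 groups (percentage points; points are medians and whiskers quartiles), by mean share over 12 libraries (percent), for new isoforms and annotated transcripts of the same genes. The medians are close under 25% and over 90%, and at 50% to 75% they are 30.1 for new and 15.9 for annotated forms.

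The 10 new isoforms of highest FPKM came from 4 genes. TCONS_00307088 of ENSRNOG00000056128 averaged 2316 FPKM and held 99.5% to 99.7% of its gene in every library. TCONS_00239730 of ENSRNOG00000019992 averaged 239 FPKM and held 93.7% to 98.9%. TCONS_00097948 of ENSRNOG00000055956 averaged 988 FPKM, with levels from 5.07 FPKM in normal 10 to 2627 FPKM in acupuncture 55. Its share was 98.0% or more in 10 libraries, 42.0% in normal 10 and 59.6% in HIBD model 16. The other 7 belonged to ENSRNOG00000056747, a gene at a mean of 48601 CPM with 53 new isoforms and 1 annotated transcript, where new forms held 100% of the FPKM in every library. None of those 7 was steady. TCONS_00097921 was at 10.3%, 0%, 0.0332% and 33.1% in the normal libraries, between 0% and 0.00213% in the HIBD model libraries, and at 70.1%, 0%, 0% and 40.0% in the acupuncture libraries. TCONS_00097918 exceeded 0.01% only in normal 10 (35.1%) and acupuncture 22 (51.3%). TCONS_00097908 was at 51.1% in acupuncture 35 and at 4.36% or less elsewhere. TCONS_00097916 and TCONS_00097922 were listed at 0 only in HIBD model 16 and ran up to 38.6% and 37.4%. The groups overlapped for all 7.

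Over all 3873 genes, new isoforms took a slightly larger part of gene FPKM in the HIBD model and acupuncture groups than in the normal group. The mean over genes was 40.8%, 42.5%, 41.3% and 41.2% in normal libraries 8, 10, 11 and 13, which gives 41.5% ± 0.766 (SD, n = 4). It was 42.3%, 43.3%, 43.9% and 42.5% in HIBD model libraries 2, 8, 16 and 18, or 43.0% ± 0.757. It was 43.5%, 43.6%, 42.8% and 42.3% in acupuncture libraries 5, 22, 35 and 55, or 43.0% ± 0.648. Normal 8, 11 and 13 lay below all 8 other libraries, and normal 10 lay among them, so the ranges overlapped. The difference between HIBD model and normal was 1.56 percentage points, and between acupuncture and normal 1.60, where the larger SD was 0.766 in both. These comparisons share the normal libraries. Acupuncture and HIBD model differed by 0.0372 points, well inside the SD. Since the genes were chosen with results known, no p-value is given for these means. With genes weighted by FPKM, the summed new share was 37.1%, 37.9% and 39.4%: HIBD model and normal then differed by 0.853 points where the larger SD was 2.64, and acupuncture and normal by 2.31 where it was 1.70. The median over genes moved more, from 24.3% ± 1.74 to 28.4% ± 1.74 and 28.5% ± 1.52.

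The group means differed in genes where new and annotated forms coexist. In the 693 genes with a summed new share of 10% to 25%, its mean was 14.4% ± 1.52 in normal, 17.1% ± 1.38 in HIBD model and 17.3% ± 1.43 in acupuncture libraries. In the 591 genes at 25% to 50% it was 33.9% ± 1.68, 37.1% ± 1.82 and 37.2% ± 1.60. In the 1117 genes at 75% or more it was 95.3% in each group. The levels behind these shares are given per gene and then per isoform. The summed FPKM of the annotated transcripts of a gene had a median over genes of 4.94 ± 0.173 in normal, 4.41 ± 0.589 in HIBD model and 4.19 ± 0.137 in acupuncture libraries. HIBD model libraries 2 and 18, at 4.94 and 4.89, lay within the normal range. For the new isoforms the median was 1.51 ± 0.120, 1.59 ± 0.0474 and 1.57 ± 0.0805. Per gene, the log2 ratio of HIBD model to normal mean FPKM had a median of -0.15 for annotated forms (3060 genes above 0.1 FPKM in both groups) and -0.04 for new forms (3610 genes). For acupuncture against normal the medians were -0.20 and -0.03. Taken isoform by isoform in the edgeR level fit described further on, the median log2 fold change of HIBD model against normal was 0.16 over new isoforms, -0.07 over annotated transcripts of the same genes and 0.05 over all transcripts. For acupuncture against normal it was 0.19, -0.07 and 0.05. For new forms the ratios per gene and the fold changes of single isoforms thus differed in sign. The median over genes of the sums, 1.51 in normal and 1.59 in HIBD model libraries, also went the other way from the median of the ratios. The edgeR fit used scaled estimated counts and a filter, and the ratios used FPKM as deposited, so they differ in more than the unit. No side is called the larger. FPKM is relative to the library, so these ratios carry no absolute amount.

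In shares of FPKM the difference between group means became smaller from the shortest to the longest class. Isoforms with a ratio under 0.5 averaged a share of 7.26% ± 0.650 in normal, 8.68% ± 0.592 in HIBD model and 8.70% ± 0.513 in acupuncture libraries. Those of 0.5 to 0.9 averaged 8.68% ± 0.605, 9.93% ± 0.419 and 9.97% ± 0.595. In that class all 4 HIBD model libraries (9.62% to 10.5%) lay above all 4 normal libraries (8.24% to 9.56%). In every other class the ranges of these groups overlapped. Acupuncture and normal libraries overlapped in every class, with acupuncture at 9.19% to 10.5% in this one. Isoforms of 0.9 to 1.1 averaged 10.4% ± 0.571, 11.3% ± 0.275 and 11.1% ± 0.403. Isoforms of 2 or more did not follow, at 12.6% ± 0.140, 12.5% ± 0.124 and 12.6% ± 0.173. The annotated transcripts with a ratio of 0.9 to 1 averaged 53.3% ± 0.850, 51.6% ± 0.734 and 51.6% ± 0.667. Annotated transcripts with a ratio under 0.5 averaged 18.1% ± 0.344, 18.5% ± 0.281 and 18.1% ± 0.259. With shares of estimated counts, an alternative added after seeing the data, the order of the classes was another. From the shortest class to the longest, HIBD model and normal then differed by 0.477, 1.01, 1.004, 0.506 and 0.0223 points, against 1.42, 1.24, 0.935, 0.376 and -0.0768 in shares of FPKM. Acupuncture and normal differed by 0.497, 1.07, 0.799, 0.669 and 0.165 points, against 1.43, 1.29, 0.715, 0.504 and 0.0342. The shortest class was no longer the one that differed most. RNA integrity was not given in the sources used here, and its part in this length pattern was not tested.

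**Figure D3:**
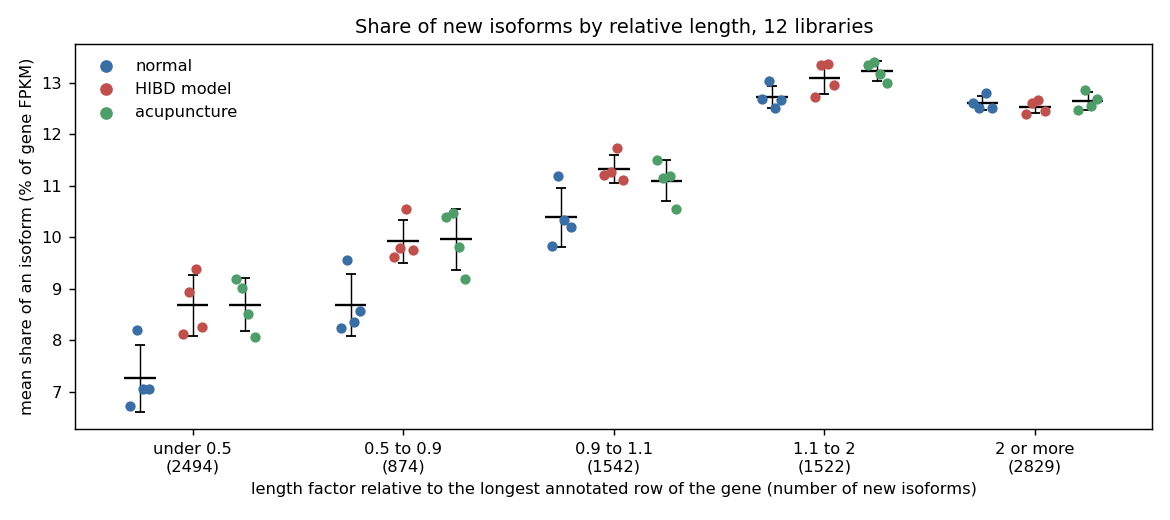
Mean share of a new isoform (percent of gene FPKM) by its length factor relative to the largest such factor among annotated transcripts of the gene. The number of isoforms is in brackets. Points are libraries, bars group means and whiskers SDs, and the vertical axis does not start at 0. In the class under 0.5 the group means are 7.26%, 8.68% and 8.70%, and at a ratio of 2 or more 12.6%, 12.5% and 12.6%.

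The comparison of the HIBD model with the normal group asks which isoforms changed their share in the injury model. Of 11036 new isoforms tested, the share of 3 rose and of 2 fell (limma on log2 odds of the share, Benjamini-Hochberg adjusted p under 0.05). Of all 22048 transcripts tested 0.0454% passed, 0.0272% higher and 0.0181% lower. An unadjusted p under 0.05 was reached by 1760 new isoforms (15.9%) against 15.1% of all transcripts. The median log2 odds difference was 0.13 over the new isoforms, -0.08 over 4659 annotated transcripts of the same genes and 0.03 over all transcripts. Every HIBD model library lay above every normal library for 598 new isoforms (5.42%, against 4.53% of all transcripts) and below for 225 (2.04%, against 3.27%). Without normal library 10 the count of calls was 707 of 11036 new isoforms (631 higher and 76 lower). Of all 22048 transcripts, 1210 then passed (787 higher and 423 lower). Without any other library the count for new isoforms was between 6 and 17. The transcripts of a gene share 1 sum and are not independent.

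TCONS_00033044 of ENSRNOG00000009664 was above 0 in the normal libraries and listed at 0 in the others. Its share was 17.5%, 20.5%, 25.02% and 22.4% in normal 8, 10, 11 and 13, and it was listed at 0 in all 8 other libraries (limma adjusted p = 3.02e-06 for HIBD model against normal). The call held in all 19 alternatives, which hold the same zeros. This isoform met the minimum mean share for the test through the normal group alone. The SE pooled the groups at 0, which have no spread, so the p-value does not rest on a spread measured in each group. The gene was at 8.99 CPM, and a form of the same relative length, TCONS_00033042, was at 10.2% to 34.7% in normal, 31.9% to 55.9% in HIBD model and 29.5% to 53.6% in acupuncture libraries.

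TCONS_00043802 of ENSRNOG00000012434, with a length ratio of 3.81, was lowest in the HIBD model group. Its share was 12.8%, 11.4%, 17.4% and 16.4% in normal libraries, 1.76%, 2.85%, 2.24% and 2.23% in HIBD model libraries, and 12.2%, 5.80%, 9.84% and 10.4% in acupuncture libraries. The HIBD model libraries lay below all others. The log2 odds fell by 2.43 (SE 0.26, limma adjusted p = 0.00774) against normal, a call lost under edgeR's diffSpliceDGE (adjusted p = 1) and kept in the other 18 alternatives. Acupuncture against HIBD model gave 1.77 (SE 0.26), which did not pass (limma adjusted p = 0.152). The mean share was 9.56% in acupuncture and 14.5% in normal libraries, and their ranges overlapped. Between these groups the log2 odds difference was -0.65 (SE 0.26), which did not pass either (limma adjusted p = 0.277). The sister form TCONS_00043804, of the same ratio, was at 14.1% to 17.3% in normal, 19.3% to 26.7% in HIBD model and 10.9% to 23.1% in acupuncture libraries.

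TCONS_00102124 of ENSRNOG00000032471, a gene led by new forms, rose from 4.06%, 1.84%, 5.11% and 0.711% in normal libraries to 38.4%, 30.1%, 48.0% and 30.4% in HIBD model libraries. It was at 21.7%, 24.4%, 28.7% and 18.8% in acupuncture libraries. The 3 groups did not overlap, with acupuncture in the middle. The log2 odds difference from normal was 4.02 (SE 0.42, limma adjusted p = 0.00749) in the HIBD model and 3.13 (SE 0.42, limma adjusted p = 0.039) with acupuncture, and between acupuncture and HIBD model -0.90 (SE 0.42, limma adjusted p = 0.988). The call for the HIBD model was lost under edgeR's diffSpliceDGE (adjusted p = 0.358) and kept in the other 19 alternatives. The gene as a whole was at 35.1 to 45.6 CPM in normal and 20.3 to 32.6 CPM in the other libraries.

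**Figure D4:**
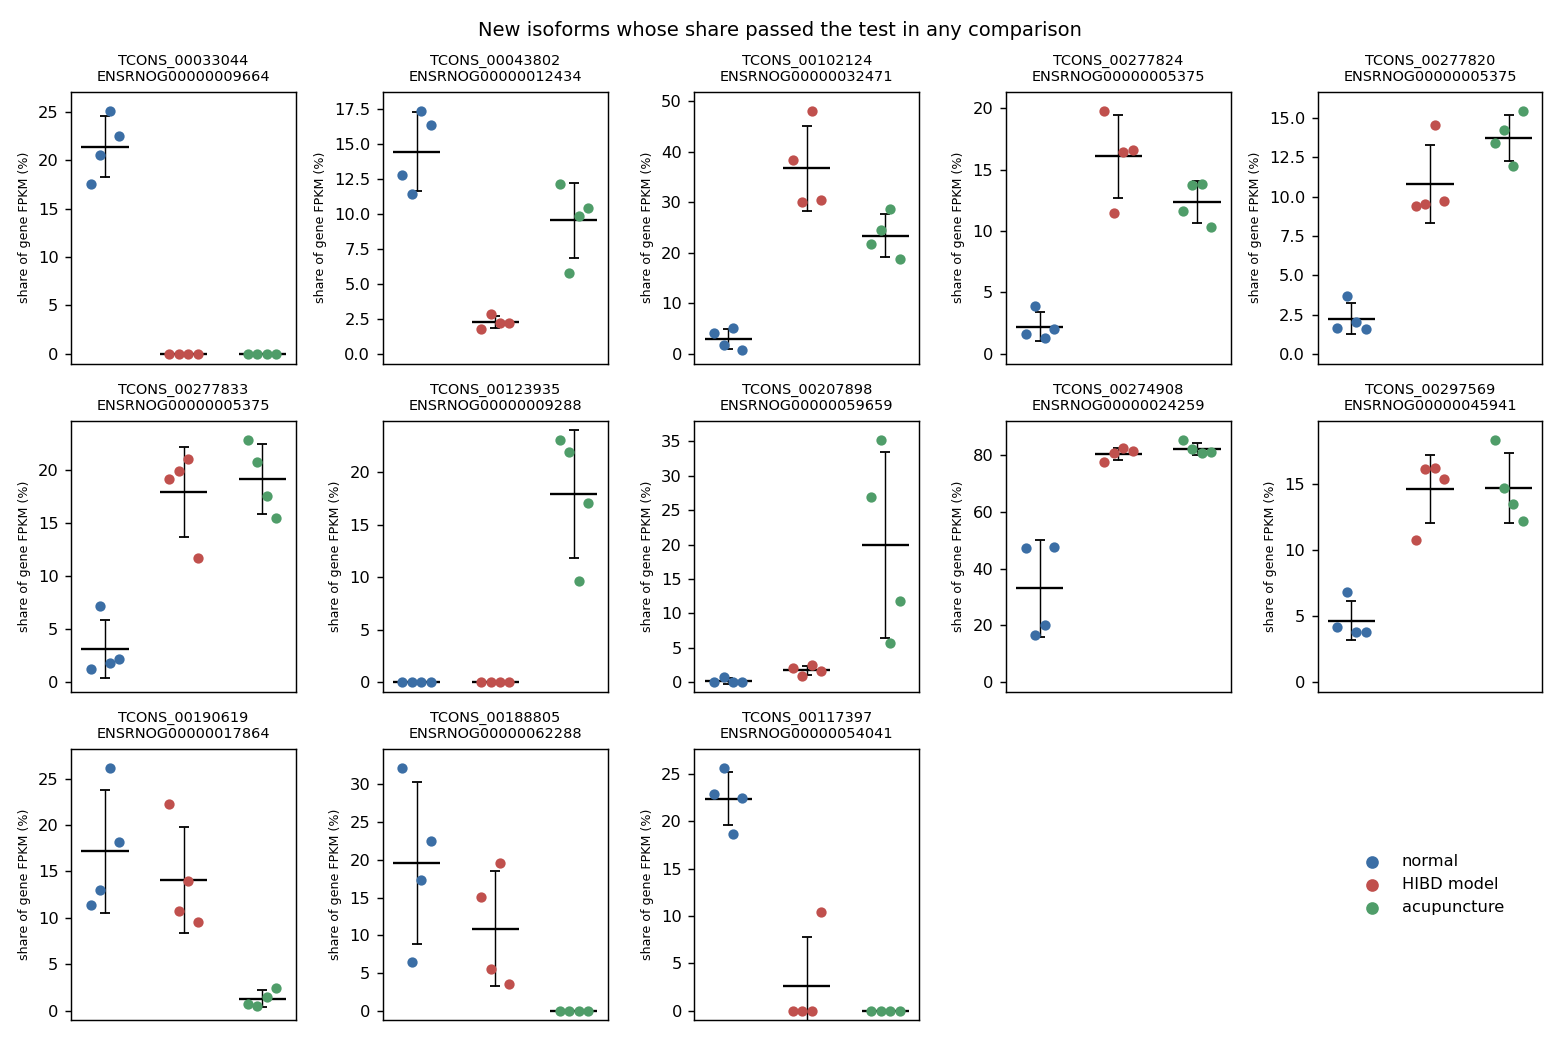
Share of the gene's FPKM (percent) in the 12 libraries for each new isoform whose share passed the limma test in any comparison; points are libraries, bars group means and whiskers SDs, each panel with its own scale from 0. TCONS_00033044 is above 0 only in normal libraries, TCONS_00123935 only in acupuncture libraries, and TCONS_00043802 is lowest in HIBD model libraries.

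In ENSRNOG00000005375 the leading form was annotated in all normal libraries and new in all HIBD model libraries. In acupuncture 55 the annotated form still led, at 26.1% against 25.4% for the largest new form. This gene had 1 annotated transcript, ENSRNOT00000066254, and 9 new isoforms. The annotated transcript held 72.5%, 58.0%, 74.3% and 75.3% of the FPKM in normal libraries, 12.8%, 8.78%, 7.16% and 12.9% in HIBD model libraries and 6.73%, 13.0%, 18.1% and 26.1% in acupuncture libraries. In FPKM it averaged 5.84 ± 0.656 in normal, 0.377 ± 0.0210 in HIBD model and 0.677 ± 0.324 in acupuncture libraries (SD, n = 4). The summed FPKM of the new isoforms was 2.54 ± 0.882, 3.45 ± 0.996 and 3.66 ± 0.732, with overlapping ranges. The gene was at 192 to 239 CPM in normal and 59.4 to 106 CPM in the other libraries. The annotated form was lowest within the normal group in normal 10, at 58.0%, still above all 8 other libraries.

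Among the new forms of that gene, TCONS_00277824 was at 1.58%, 3.90%, 1.29% and 2.05% in normal libraries, 19.7%, 11.5%, 16.4% and 16.6% in HIBD model libraries and 11.6%, 13.8%, 13.9% and 10.3% in acupuncture libraries. Its log2 odds rose by 2.67 (SE 0.28, limma adjusted p = 0.00749) in the HIBD model and by 2.27 (SE 0.28, limma adjusted p = 0.0248) with acupuncture, relative to normal. TCONS_00277820 rose from 2.23% ± 0.974 in normal to 10.8% ± 2.49 in HIBD model (limma adjusted p = 0.0171) and 13.8% ± 1.46 in acupuncture libraries (limma adjusted p = 0.00636). Both have a length ratio of 1.03, and 3 more new forms of the gene share that ratio, so the division of reads among them is uncertain. Under edgeR's diffSpliceDGE none of these 4 calls passed (adjusted p from 0.358 to 0.646). TCONS_00277824 lost its call in 1 of 20 alternatives for the HIBD model and in 5 of 20 for acupuncture, and TCONS_00277820 in 3 of 20 and 1 of 20. TCONS_00277833, with a ratio of 0.0294, was at 1.23% to 7.18% in normal, 11.7% to 21.1% in HIBD model and 15.5% to 22.8% in acupuncture libraries, and passed in the last comparison only (limma adjusted p = 0.0497, against 0.0707 for HIBD model and normal). The largest new form by mean share, TCONS_00265299, was at 8.68% to 16.5% in normal and 19.6% to 29.3% in the other libraries. Its length ratio was 0.0047, and it held no more than 0.2305% of the gene's estimated counts in any library. By estimated count, an alternative added after seeing the data, TCONS_00277824 led in HIBD model 2, 8 and 16 and TCONS_00277823 in HIBD model 18. TCONS_00277820 led in acupuncture 5 and 22, at 29.3% and 27.2%. The annotated form led in acupuncture 35 and 55 (30.9% and 43.4%) and in all normal libraries.

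**Figure D5:**
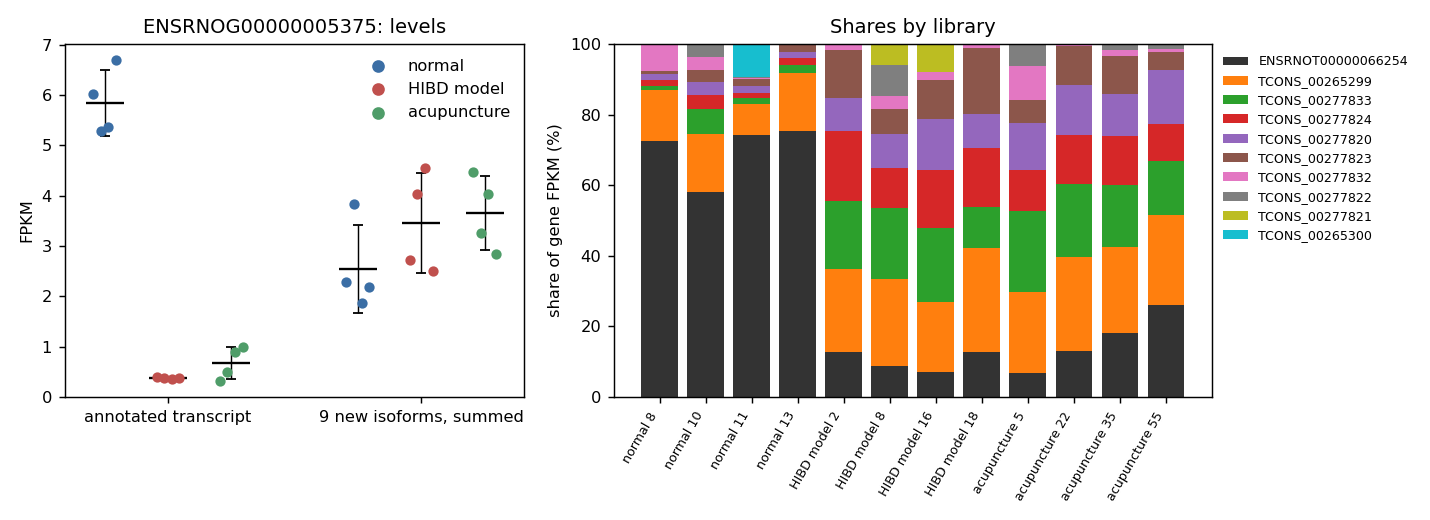
Left, FPKM of the annotated transcript and summed FPKM of the 9 new isoforms of ENSRNOG00000005375, with 1 point per library, the group mean as a bar and the SD as whiskers; right, the share of gene FPKM (percent) of each form reaching 5% in any library, stacked by library. The annotated form averages 5.84 FPKM in normal and 0.377 FPKM in HIBD model libraries, while the summed new forms overlap between groups.

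Other isoforms of lowest p in this comparison, among those averaging a share of 10% or more, did not pass. TCONS_00274908 of ENSRNOG00000024259 was at 47.4%, 16.7%, 20.2% and 47.7% in normal libraries and 77.4% to 82.2% in HIBD model libraries (limma adjusted p = 0.0597). TCONS_00297569 of ENSRNOG00000045941 was at 3.804% to 6.84% and 10.8% to 16.3% (limma adjusted p = 0.0607). On the lower side, TCONS_00188801 of ENSRNOG00000062288 was at 12.7% to 39.7% in normal libraries and listed at 0 in all 4 HIBD model libraries (limma adjusted p = 0.0607). The groups did not overlap in any of these 3. TCONS_00218793 of ENSRNOG00000055261 was at 4.78% to 37.9% in normal, listed at 0 in all HIBD model and at 8.26% to 24.8% in acupuncture libraries (limma adjusted p = 0.0707 for HIBD model against normal). TCONS_00111360 of ENSRNOG00000058949 was at 57.6% to 89.2% and 28.7% to 43.4% (limma adjusted p = 0.0989). TCONS_00207909 of ENSRNOG00000060173 was at 80.0% to 94.4% in normal libraries, 3.77% in HIBD model 2 and listed at 0 in the other 3 (limma adjusted p = 0.1). It was listed at 0 in acupuncture libraries except number 35, at 70.5%.

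The comparison of acupuncture with the HIBD model asks what the treated group changed relative to the model. The share of 1 new isoform rose and none fell (limma, adjusted p under 0.05). Of all transcripts tested 0.0136% passed, 0.00907% higher and 0.00454% lower. An unadjusted p under 0.05 was reached by 508 new isoforms (4.60%), against 4.50% of all transcripts. The ranges stood apart upward for 142 new isoforms (1.29%, against 1.27% of all transcripts) and downward for 111 (1.01%, against 1.12%). The median log2 odds difference was 0 over the new isoforms and 0 over all transcripts. Leaving out a library gave 1 to 9 calls, the most without HIBD model 18.

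TCONS_00123935 of ENSRNOG00000009288, with a length ratio of 2.03, was the isoform called. It was listed at 0 in all normal and HIBD model libraries and held 23.1%, 21.9%, 9.60% and 17.1% in acupuncture 5, 22, 35 and 55 (limma adjusted p = 0.000271 against HIBD model and 0.00018 against normal). The call was lost under edgeR's diffSpliceDGE (adjusted p = 0.124 and 0.114) and held in the other 19 alternatives. The isoform met the minimum mean share for the test through the acupuncture group alone. As the groups at 0 have no spread, the limma p-values do not rest on a spread measured in each group. The gene has 8 new isoforms with strong swings among them. TCONS_00123936 ran from 0% to 76.8% in normal and from 0.0998% to 42.3% in HIBD model libraries and was near 0 in all acupuncture libraries. TCONS_00123933, of the same ratio as the called form, was at 36.1% to 61.2% in acupuncture libraries and 2.14% to 69.1% in HIBD model libraries. The gene's level was 170 to 207 CPM in acupuncture, 152 to 601 CPM in HIBD model and 149 to 556 CPM in normal libraries.

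Other isoforms of lowest p in this comparison did not pass. TCONS_00011136 of ENSRNOG00000011213, the only new form of its gene, was at 14.1% to 18.8% in acupuncture and 2.71% to 6.98% in HIBD model libraries, with normal libraries at 8.90% to 25.2% (limma adjusted p = 0.523). TCONS_00150290 of ENSRNOG00000024066 was at 17.0% to 28.6% and 6.76% to 13.6% (limma adjusted p = 0.615). TCONS_00234456 of ENSRNOG00000005413 was at 19.8% to 38.6% in acupuncture libraries, at 23.1% in HIBD model 18 and at 0.0337% or less in the other 7 (limma adjusted p = 0.675). For TCONS_00218793, named above, the adjusted p was 0.217 by limma. Among lower shares, TCONS_00190619 of ENSRNOG00000017864 was at 9.54% to 22.2% in HIBD model and 0.519% to 2.49% in acupuncture libraries (limma adjusted p = 0.13). TCONS_00188805 of ENSRNOG00000062288 was at 3.50% to 19.5% in HIBD model libraries and listed at 0 in all acupuncture libraries (limma adjusted p = 0.299). TCONS_00181292 of ENSRNOG00000060983 was at 68.1% to 82.2% in HIBD model and 31.1% to 69.5% in acupuncture libraries, which overlapped (limma adjusted p = 0.782). TCONS_00299527 of ENSRNOG00000036267 was at 19.3% to 25.5% and 5.93% to 14.9%, which did not (limma adjusted p = 0.782).

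The last comparison sets acupuncture against normal libraries. The share of 8 new isoforms rose and of 4 fell (limma, adjusted p under 0.05). Of all transcripts tested 0.0952% passed, 0.0590% higher and 0.0363% lower. An unadjusted p under 0.05 was reached by 1719 new isoforms (15.6%), against 14.8% of all transcripts. Ranges stood apart upward for 601 new isoforms (5.45%, against 4.50% of all transcripts) and downward for 216 (1.96%, against 3.21%). The median log2 odds difference was 0.12 over the new isoforms, -0.08 over annotated transcripts of the same genes and 0.03 over all transcripts. Without normal library 10 there were 632 calls among 11036 new isoforms, 561 higher and 71 lower. Of all 22048 transcripts, 1047 then passed, 680 higher and 367 lower. Leaving out any other library gave 3 to 18 calls of new isoforms.

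Of the 12 called, TCONS_00033044, TCONS_00123935, TCONS_00102124 and the 3 forms of ENSRNOG00000005375 were described above. TCONS_00274908 of ENSRNOG00000024259, at 80.6% to 85.2% in acupuncture libraries against 16.7% to 47.7% in normal ones, rose by a log2 odds of 3.26 (SE 0.46, limma adjusted p = 0.0415). New forms held 99.7% or more of that gene in every library, so the change was among new forms. TCONS_00274910 was at 82.6% in normal 10, 47.0% in normal 8, 45.9% in normal 13 and listed at 0 in normal 11 and in all 8 other libraries. TCONS_00297569 of ENSRNOG00000045941 rose from 4.67% ± 1.46 to 14.7% ± 2.65 (limma adjusted p = 0.0497), and the summed FPKM of annotated forms there was 4.22 ± 0.327 in normal and 2.11 ± 0.331 in acupuncture libraries. TCONS_00207898 of ENSRNOG00000059659 was at 0%, 0.820%, 0% and 0% in normal libraries and 26.9%, 35.2%, 5.67% and 11.8% in acupuncture libraries (limma adjusted p = 0.0415).

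The 4 that fell included TCONS_00033044 and TCONS_00190619, TCONS_00188805 and TCONS_00117397. TCONS_00190619 was at 11.4%, 13.0%, 26.1% and 18.2% in normal libraries and 0.704%, 0.519%, 1.52% and 2.49% in acupuncture libraries (log2 odds difference -3.24, SE 0.41, limma adjusted p = 0.0289). TCONS_00188805 was at 32.1%, 6.45%, 17.3% and 22.5% in normal libraries and listed at 0 in all acupuncture libraries (limma adjusted p = 0.0415). Another new form of its gene, TCONS_00188803, held 90.8% to 99.3% in acupuncture and 9.09% to 30.6% in normal libraries, and ran from 3.23% to 93.7% in HIBD model libraries. TCONS_00117397 of ENSRNOG00000054041 was at 18.7% to 25.6% in normal libraries, 10.4% in HIBD model 18 and listed at 0 in the other 7 (limma adjusted p = 0.0497). The calls near the threshold were fragile: that of TCONS_00274908 was lost in 9 of 19 alternatives, that of TCONS_00190619 in 8 of 20, that of TCONS_00102124 in 8 of 20, that of TCONS_00297569 in 16 of 19, that of TCONS_00277833 in 13 of 19, that of TCONS_00117397 in 12 of 19, and those of TCONS_00188805 and TCONS_00207898 in 11 of 20 each. The rule also picked TCONS_00030702 of ENSRNOG00000055753, at 27.2% to 46.0% in normal and 8.43% to 21.5% in acupuncture libraries (limma adjusted p = 0.125), and TCONS_00258849 of ENSRNOG00000061081, at 6.57% to 37.3% and 0.258% to 2.64% (limma adjusted p = 0.114).

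In 1019 genes a new isoform led in all 12 libraries, in 2161 genes an annotated transcript did, and in 693 genes the lead went either way. Pairs of libraries within a group differed in the lead of 205 to 250 genes and pairs from different groups in that of 208 to 270. The medians were 219, 237 and 227.5 within the normal, HIBD model and acupuncture groups, and 244.5, 226 and 247.5 for HIBD model with normal, acupuncture with HIBD model and acupuncture with normal. Besides ENSRNOG00000005375, 4 genes had opposite leads in all 4 libraries of a group against all 4 of another, and they were singled out after their values were seen. In ENSRNOG00000059592 the new form TCONS_00286112 was at 44.9% to 55.9% in normal and 26.4% to 40.6% in HIBD model libraries, and the annotated ENSRNOT00000085217 was at 35.7% to 41.2% and 41.9% to 57.4%. In ENSRNOG00000032890 the new form TCONS_00126678 was at 26.0% to 41.9% in HIBD model and 62.9% to 74.1% in acupuncture libraries, while normal libraries ran from 17.9% to 91.7%. The other 2, ENSRNOG00000016717 and ENSRNOG00000058131, were led by new forms in normal and by annotated forms in HIBD model libraries, with several new forms taking turns in the lead.

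The level of an isoform, as distinct from its share, was tested with edgeR's quasi-likelihood test over all 53666 transcripts that passed the filter, 11337 of them new isoforms of known genes. In the HIBD model against normal, 1 new isoform rose and 4 fell (edgeR adjusted p under 0.05). Of all transcripts 0.0335% passed, 0.0242% higher and 0.00932% lower. Without normal library 10, 859 of 11658 new isoforms passed, 759 higher and 100 lower. Of all 55481 transcripts, 2964 then passed, 2664 higher and 300 lower. An unadjusted p under 0.05 was reached by 1930 new isoforms and by 16.0% of all transcripts. TCONS_00035743 of ENSRNOG00000057137, the 1 that rose, was listed at 0 in all normal libraries and was at 0.319, 0.221, 0.362 and 0.189 FPKM in HIBD model and 0.394, 0.339, 0.394 and 0.0357 FPKM in acupuncture libraries (edgeR adjusted p = 0.0178 and 0.0172 against normal). TCONS_00043802 fell from 1.41, 1.34, 2.02 and 2.29 FPKM to 0.193, 0.263, 0.188 and 0.238 FPKM (edgeR adjusted p = 0.0137), and this call held in all 13 alternatives. TCONS_00033044 (edgeR adjusted p = 0.0349) and TCONS_00218793 (edgeR adjusted p = 0.0137) fell as well, each listed at 0 in all HIBD model libraries. TCONS_00164127 of ENSRNOG00000018345, a minor form, was at 0.237, 0.292, 0.316 and 0.306 FPKM in normal libraries and listed at 0 in the other 8 (edgeR adjusted p = 0.0353 against HIBD model). Of 13 alternatives, the call was lost in 5 for TCONS_00033044, 5 for TCONS_00164127, 3 for TCONS_00035743 and 2 for TCONS_00218793. All called here except TCONS_00043802 were listed at 0 throughout a group and passed the filter through other groups alone. Their p-values rest on those zeros and not on a spread measured in each group.

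In acupuncture against HIBD model 1 new isoform rose and none fell (edgeR). Of all transcripts 0.00745% passed, 0.00186% higher and 0.00559% lower. An unadjusted p under 0.05 was reached by 569 new isoforms, with 4.58% of all transcripts. The isoform was TCONS_00218793, listed at 0 in the HIBD model libraries and at 0.323, 0.387, 0.341 and 0.675 FPKM in acupuncture libraries (edgeR adjusted p = 0.0367), and the call was lost in 6 of 13 alternatives. In acupuncture against normal 3 rose and 3 fell (edgeR). Of all transcripts 0.0559% passed, 0.0354% higher and 0.0205% lower. Without normal library 10, 771 of 11658 new isoforms passed, 715 higher and 56 lower. Of all 55481 transcripts, 2690 then passed, 2452 higher and 238 lower. For 1919 new isoforms, and for 17.6% of all transcripts, the unadjusted p was under 0.05. TCONS_00299502 of ENSRNOG00000059660 rose from 4.99, 4.05, 6.19 and 8.16 FPKM in normal to 41.5, 39.1, 29.96 and 22.6 FPKM in acupuncture libraries, a log2 fold change of 2.60 (edgeR adjusted p = 0.0274), lost in 6 of 13 alternatives. It was at 17.6, 21.9, 34.8 and 17.1 FPKM in HIBD model libraries, which lay apart from the normal ones without passing (edgeR adjusted p = 0.101). Its share was 11.2% to 63.2% in normal and 61.9% to 68.7% in acupuncture libraries, which overlapped, and the whole gene stood at 21.7 to 78.7 CPM in normal and 65.4 to 139 CPM in acupuncture libraries. The other calls were TCONS_00035743 and TCONS_00123935, higher, and TCONS_00033044, TCONS_00164127 and TCONS_00188805, lower, all listed at 0 in every library of a group. Of 13 alternatives, these calls were lost in 4 for TCONS_00033044 and TCONS_00164127 and in 3 for TCONS_00035743, TCONS_00123935 and TCONS_00188805. The p-values of these calls, and that of TCONS_00218793, carry the limit given above for isoforms listed at 0 throughout a group.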

How the data were processed

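Total RNA was extracted with Trizol, and libraries were made with an NEBNext Ultra kit, per the labels' protocols. HTSeq 0.6.0 and the build Rnor 6.0 appear, with no role, in the submitters' processing notes. The sources used here name no aligner, assembler or strand setting. The authors deposited a table of estimated counts per transcript, which they call read counts, and an FPKM table per library in the same row order. That the values are FPKM and the counts estimated was read from the values: over 12003 abundant transcripts, the deposited count deviated from FPKM times a transcript and a library factor by a median of 0.00137%. The transcript factor gave approximate relative lengths, for transcripts with a summed estimated count of 100 or more, new and annotated alike.

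Shares were tested with limma 3.58.1 (R 4.3.3; lmFit, eBayes with trend) on log2((share + 0.01)/(1 - share + 0.01)), where a fold on this scale understates changes of small shares. The fit held all 12 libraries and all transcripts with a mean share of 1.0% or more in genes of 5 CPM or more with several transcripts. Transcripts of genes at 0 in any library were left out, a choice made after seeing the data. Levels were tested with edgeR 4.0.16 (glmQLFit, glmQLFTest, TMM, filterByExpr) on the estimated counts, whole numbers as deposited. This test had been planned for read counts and was kept for these estimated ones. P-values were adjusted over all transcripts tested. A transcript listed at 0 throughout a group could enter either test through the other groups alone. Such a group adds no spread, so the p-value of such a transcript is to be read with caution. Both tests were tried on simulated data. The simulated shares held no zeros, the same spread setting served all transcripts, and no group was set to 0 throughout. Those runs therefore do not cover isoforms listed at 0 in a group or shares that swing widely within a group. A permutation test planned for the mean share was not used, because the members were chosen with results known.

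Groups came from the sample titles. The members, rules and lists were chosen with earlier results of these data known. Named isoforms were, per comparison, the 4 of lowest p in each direction with a mean share of 10% or more, passed or not, at most 1 per gene and direction; the 10 of highest FPKM; the 6 of widest range with a mean share of 10% or more; and the 6 of narrowest range among those at 30% to 70%. Isoforms that passed a test were named too, after their values were seen. Gene lists and cell type markers needed symbols and were not used. No sequence of a new isoform was in the sources used here. Alternatives included DESeq2 1.42.0, limma-voom, diffSpliceDGE, other offsets and filters, shares of estimated counts and each library left out. Figures were drawn with matplotlib 3.10.9.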

Additional observations from a re-analysis of the deposited data

Results flagged for a closer look

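In 35 of the 135 group-and-isoform sets with any spread among the named isoforms, 1 library lay far from the other 3 in share of its gene; chance alone marks about 1 in 20 sets of values taken without selection. That rate does not hold for these sets, since some isoforms were named for a wide range and some sets hold 3 zeros. The shares below are those of the library that stood apart, and no difference is explained.

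Normal library 10 was the highest of its group for TCONS_00002076 (10.6%), TCONS_00234456 (0.0337%), TCONS_00277833 (7.18%), TCONS_00297569 (6.84%), TCONS_00097922 (13.0%), TCONS_00097918 (35.1%) and TCONS_00207898 (0.820%), and the lowest for TCONS_00097948 (42.0%). Normal 8 was the lowest for TCONS_00239730 (93.7%) and TCONS_00164127 (0.802%) and the highest for TCONS_00097924 (39.7%). Normal 13 was the highest for TCONS_00097933 (19.6%).

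Among HIBD model libraries, number 8 was the highest for TCONS_00002076 (8.28%) and TCONS_00097924 (11.3%). Number 18 was the highest for TCONS_00003828 (8.59%), TCONS_00234456 (23.1%) and TCONS_00117397 (10.4%) and the lowest for TCONS_00239730 (94.9%). Number 16 was the highest for TCONS_00277820 (14.6%), TCONS_00097908 (1.62%) and TCONS_00097933 (0.0103%), and the lowest for TCONS_00307088 (99.6%) and TCONS_00097948 (59.6%). Number 2 was the highest for TCONS_00097921 (0.00213%) and TCONS_00207909 (3.77%) and the lowest for TCONS_00297569 (10.8%).

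Among acupuncture libraries, number 35 was the highest for TCONS_00002052 (100%), TCONS_00097924 (0.774%), TCONS_00097908 (51.1%) and TCONS_00207909 (70.5%) and the lowest for TCONS_00307088 (99.5%). Number 55 was the lowest for TCONS_00003777 (0%) and TCONS_00035743 (0.388%) and the highest for TCONS_00003828 (100%). Number 22 was the highest for TCONS_00097918 (51.3%).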

How the results depend on the processing

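No result changed sign in a call under any alternative run, and the cause of the changes below was not tested. The difference in mean summed new share was 4.05 points (HIBD model against normal) and 4.16 (acupuncture against normal) as a median over genes, and 0.853 (HIBD model against normal), 1.45 (acupuncture against HIBD model) and 2.31 (acupuncture against normal) with genes weighted by FPKM. Leaving out a library gave 1.25 to 1.92, -0.21 to 0.34 and 1.37 to 1.96 points for HIBD model against normal, acupuncture against HIBD model and acupuncture against normal.

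Counts of new isoforms with a changed share are followed in brackets by those of all transcripts. In HIBD model against normal they were 11 (20) with an offset of 0.001, 8 (17) with an offset of 0.05 and 9 (20) on the arcsine scale. They were 8 (13) with no minimum share, 14 (21) with shares of estimated counts and 8 (15) with library weights. A fit of 2 groups gave 19 (40), 8 higher and 11 lower, and diffSpliceDGE 91 (124), 40 higher and 51 lower. In acupuncture against HIBD model they were 3 (7) with an offset of 0.001, 2 (4) with no minimum share and 2 (3) with shares of estimated counts. They were 4 (12) in a fit of 2 groups, 3 higher and 1 lower, and 99 (137) with diffSpliceDGE, 41 higher and 58 lower. In acupuncture against normal they were 5 (10) with shares of estimated counts, 6 (12) on the arcsine scale and 24 (47) with library weights. They were 28 (52) in a fit of 2 groups, 14 higher and 14 lower, and 91 (129) with diffSpliceDGE, 35 higher and 56 lower. Leaving out a library gave 6 to 707, 1 to 9 and 3 to 632 calls, the highest of the first and last without normal library 10. Of all 21459 transcripts, diffSpliceDGE called 124 (59 higher and 65 lower), 137 (62 and 75) and 129 (56 and 73) in the 3 comparisons, in the order above. The new isoforms it tested numbered 10933. In fits of 2 groups, 40 (20 higher and 20 lower), 12 (7 and 5) and 52 (29 and 23) of all 22048 transcripts passed, with 11036 new isoforms tested. The other offsets, the arcsine scale and library weights used the same transcripts. With no minimum share 26020 were tested, 12702 of them new isoforms. With shares of estimated counts 20213 were tested, 10138 of them new isoforms.

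Counts of changed levels in HIBD model against normal were 3 with no filter, 11 in a fit of 2 groups and 1313 with DESeq2 (959 higher and 354 lower). In acupuncture against HIBD model they were 0 with no filter, 0 in a fit of 2 groups, 0 with limma-voom and 218 with DESeq2. In acupuncture against normal they were 48 in a fit of 2 groups and 1278 with DESeq2 (946 higher and 332 lower). Leaving out a library gave 2 to 859, 0 to 8 and 2 to 771. The new isoforms tested with DESeq2 numbered 10874. Of all 52482 transcripts, DESeq2 called 5817 in HIBD model against normal (4066 higher and 1751 lower). It called 738 in acupuncture against HIBD model and 6561 in acupuncture against normal (4115 higher and 2446 lower). In fits of 2 groups, 18 of 49439 (6 higher and 12 lower), 2 of 49977 and 303 of 49270 (144 higher and 159 lower) transcripts passed, in the same order. With no filter, 13 of all 68118 transcripts passed in HIBD model against normal and 0 in acupuncture against HIBD model. For the latter comparison limma-voom called 11 of all 53666.

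Of the alternatives for single isoforms and classes, 792 kept the outcome, 146 lost a call, 30 gained one and 9 moved in value. The 792 include results that were not called in the main fit and stayed so, and do not measure how often a call was kept. No paired analysis was possible because the groups compared share fewer than 2 replicate numbers. Depth in reads is unknown, and no counting error is given for any share.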
